A study of Sus scrofa with 44 samples.

Results

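The genes described here are the insulin-like growth factor IGF1, its receptor IGF1R, the related receptors IGF2R and INSR, and the binding proteins IGFBP2, IGFBP3, IGFBP4, IGFBP5 and IGFBP6. They were chosen by gene symbol, and 8 of the 9 symbols matched an Ensembl pig gene among the 22427 genes of the deposited tables. IGFBP3 had no match and has no value of its own. All 8 matched genes had a mean of at least 1 TPM (transcript abundance per library, corrected for transcript length) over the muscle libraries and were tested, along with 13334 genes in all. The series held 44 pig samples, sequenced as input RNA or after immunoprecipitation with an antibody against N6-methyladenosine (m6A, a methyl mark on internal adenosines of mRNA). Of these, 36 came from rRNA-depleted RNA of longissimus dorsi, a muscle of the back, at 6 prenatal stages called E33, E40, E50, E60, E70 and E95 after the day post coitus (33, 40, 50, 60, 70 or 95), and each stage had 3 samples of either kind. The other 8 came from PK15, an established cell line of pig kidney: 4 from polyA RNA and 4 from rRNA-depleted RNA, each with 2 of either kind. The labels name no breed, sex, litter or treatment for any group, and whole muscle tissue holds several cell types besides muscle fibres. They do not say that the 3 samples of a stage came from separate animals, so the p-values given here measure only the spread between these samples. Levels come from the 18 muscle input libraries, and m6A peaks from 8 deposited lists, 1 for each stage and 1 for each PK15 preparation.

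Insulin-like growth factors are secreted proteins that drive growth before and after birth. IGF1R is a receptor tyrosine kinase that binds IGF1 and IGF2 and signals through IRS adaptors, PI3 kinase, AKT and mTOR to protein synthesis, and INSR, the insulin receptor, shares its build and its pathway. IGF2R carries IGF2 to lysosomes for breakdown and does not signal through a kinase of its own. The binding proteins hold IGFs in extracellular fluid and near cells, where they can withhold the ligand from the receptor or release it after cleavage. In skeletal muscle the pathway is known for its part in the proliferation and fusion of myoblasts and in fibre growth.

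The depth of the libraries is unknown, because every deposited column sums to 1000000 TPM. A single gene without a symbol held 37.4% to 72.4% of all TPM in a library, so the other genes shared what remained. A second such gene took 17.3% of replicate 2 at E40 and 14.4% of replicate 3 at E50, and these libraries also had fewer genes at 1 TPM or more (10545 and 8691) than the other input library with the fewest (10876, E95 replicate 2). Levels were therefore divided by a median-ratio factor per library, from 0.303 to 1.99 over the 18 libraries, and are called scaled TPM. Over all genes tested, the median log2 change of E95 against E33 was -1.02 as deposited, -0.60 after TPM was recomputed without the 2 most abundant genes, and -0.0046 after scaling. A direction given below is relative to the bulk of genes, and the value as deposited stands beside each main result. Without E40 replicate 2 and E50 replicate 3, the number of genes called among the 8 was the same in every comparison of stages. The muscle fibre markers ACTA1, CKM, DES, MYH3, MYH8, TNNI2, TNNT3 and MYOG were detected at every stage, with a summed level of 3338 to 4005 scaled TPM at E33 and 19583 to 28434 at E95. At an adjusted p under 0.05 in limma, 6 of the 8 were higher at E95 than at E33 after scaling, and MYH3 was lower. As deposited, the same 6 were higher, and MYH3 and MYOG were lower.

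IGFBP5 was the most abundant of the 8 genes in 18 of 18 libraries, and a mean of 238 scaled TPM ranked it 187th of the 13334 genes tested. IGFBP6 followed with 50.2 scaled TPM, then IGF2R with 21.7, IGFBP4 with 20.9, IGFBP2 with 15.3, IGF1R with 12.4, INSR with 4.94 and IGF1 with 3.56. IGF1R lay above INSR and above IGF1 in 18 of 18 libraries, and IGF2R lay above IGF1R in 17 of 18. TPM corrects for transcript length, but the quantifier and the lengths it used are not given. The order of the genes depends on these lengths, which were not checked.

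After scaling, 7 of the 8 genes differed between E95 and E33 at a Benjamini-Hochberg adjusted p under 0.05 in limma (hereafter called), against 46.7% of all genes tested. IGFBP2, IGFBP4, IGFBP5 and IGF1R were lower at E95, where 23.8% of all genes were called lower, and IGF1, INSR and IGFBP6 were higher, where 22.8% were. IGF2R did not pass. The median log2 change of the 8 genes was -0.20, against -0.0046 over all genes tested. As deposited, the 4 falls were called and the 3 rises were not, in a comparison where 48.5% of genes were called, 45.8% lower and 2.64% higher. Over all 6 stages, 8 of 8 genes were called by the moderated F test after scaling and 3 of 8 as deposited, against 47.5% and 20.1% of all genes. Changes are on the scale of log2(TPM + 1), which understates the change of genes with a low level. In whole tissue, fewer cells of a type and less RNA per cell cannot be told apart.

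**Figure D1:**
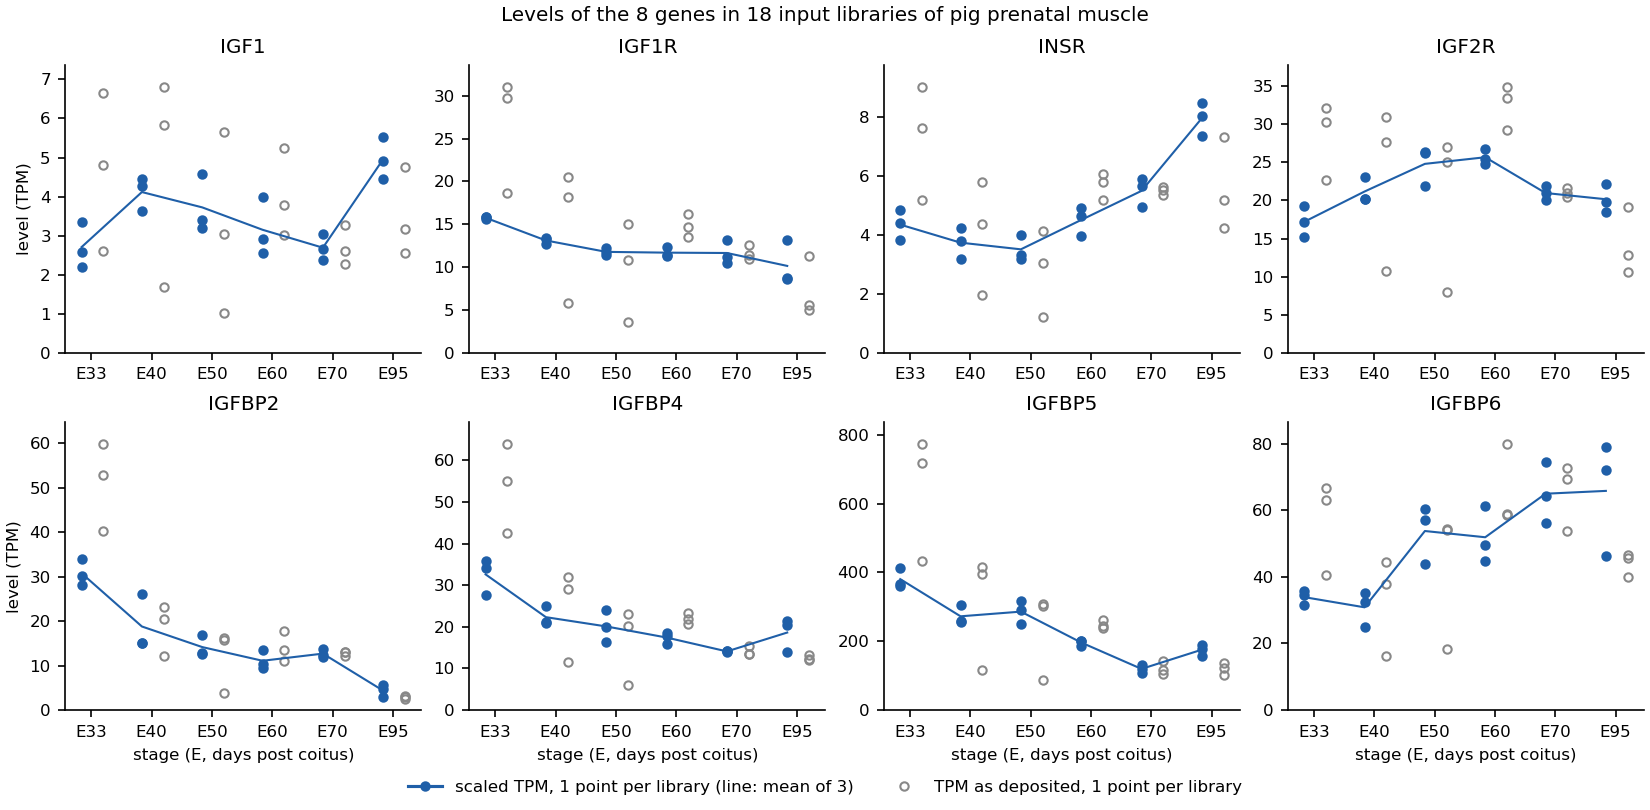
Levels of the 8 genes (y axis, TPM) in the 18 muscle input libraries by stage (x axis, days post coitus). Filled points are scaled TPM of single libraries with a line through the mean of 3, and open points are TPM as deposited; the 3 scaled points of IGFBP2 at E95, 2.87 to 5.55, lie below all earlier ones.

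IGF1 (ENSSSCG00000000857, chr5:81762027-81909253, plus strand), the ligand, had the lowest mean of the group. Scaled TPM of IGF1 was 2.21, 3.34 and 2.57 in the E33 libraries, 4.26, 3.63 and 4.45 in those of E40 and 3.18, 4.58 and 3.41 in those of E50. It was then 2.55, 2.91 and 3.99 (E60), 2.38, 3.03 and 2.67 (E70) and 4.90, 4.44 and 5.53 (E95). The stages from lowest to highest mean were E70, E33, E60, E50, E40 and E95, and each neighbouring pair in that order overlapped. The E95 libraries lay above every E33, E60 and E70 library. The log2 change of E95 against E33 was 0.69 (SE 0.15, 95% confidence interval 0.37 to 1.01, n = 3 and 3), with an adjusted p of 0.0016 in limma, and the change as deposited was -0.30 (adjusted p 0.56). Between neighbouring stages IGF1 was called higher at E40 than at E33, by 0.47 (adjusted p 0.039), and at E95 than at E70, by 0.69 (adjusted p 0.007).

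IGF1R (ENSSSCG00000030560, chr1:137383623-137691038, minus strand), the receptor that signals for IGF1 and IGF2, fell. Scaled TPM of IGF1R was 15.8, 15.6 and 15.9 in the E33 libraries, 13.3, 12.6 and 13.4 in those of E40 and 11.4, 12.2 and 11.8 in those of E50. It was then 11.5, 11.3 and 12.3 (E60), 13.2, 10.5 and 11.2 (E70) and 8.59, 8.68 and 13.2 (E95). The 3 E33 libraries lay above all others, the 3 E40 libraries lay above those of E50 and E60, and the ranges of E50, E60, E70 and E95 overlapped. E95 replicate 3, at 13.2, lay in the range of E40, apart from the other E95 libraries. The log2 change of E95 against E33 was -0.61 (SE 0.12, adjusted p 9.2e-04), a 1.53-fold fall of scaled TPM + 1, and -1.77 as deposited (adjusted p 0.0074). Without E95 replicate 3 the change after scaling was -0.80.

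INSR (ENSSSCG00000013566, chr2:71797209-71939923, plus strand), the insulin receptor, had its lowest scaled mean at E50 and its highest at E95. Scaled TPM of INSR was 4.40, 3.83 and 4.84 in the E33 libraries, 3.19, 4.25 and 3.79 in those of E40 and 3.19, 3.34 and 4.02 in those of E50. It was then 4.93, 4.66 and 3.96 (E60), 5.89, 4.96 and 5.66 (E70) and 8.05, 7.38 and 8.49 (E95). The ranges of E33, E40, E50 and E60 overlapped, the E70 libraries lay above all of these, and the E95 libraries lay above the E70 libraries. From E33 to E95 the log2 change was 0.75 (SE 0.11, adjusted p 6.1e-05) after scaling and -0.33 (adjusted p 0.45) as deposited. INSR was also called higher at E95 than at E70, by 0.47 (adjusted p 0.011). That call was lost without E70 replicate 2 (adjusted p 0.057 in limma). It was also lost with TPM recomputed without the 2 most abundant genes (0.23, adjusted p 0.29).

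IGF2R (ENSSSCG00000004044, chr1:7369485-7472480, minus strand), which removes IGF2 from the cell surface, had its highest mean in the middle of the series. Scaled TPM of IGF2R was 19.2, 15.2 and 17.2 in the E33 libraries, 20.2, 23.1 and 20.2 in those of E40 and 26.2, 21.9 and 26.3 in those of E50. It was then 24.8, 26.8 and 25.4 (E60), 21.9, 20.1 and 21.0 (E70) and 19.8, 18.4 and 22.2 (E95). From lowest to highest mean the stages were E33, E95, E70, E40, E50 and E60, and each neighbouring pair overlapped. All libraries of E40, E50, E60 and E70 lay above the 3 E33 libraries. The change of E95 against E33 was 0.22 (SE 0.10, 95% confidence interval -0.0016 to 0.44) and missed the threshold (adjusted p 0.096). It was -0.97 as deposited (adjusted p 0.08), and -0.42 with TPM recomputed without the 2 most abundant genes (adjusted p 0.015), so the sign of this change depends on the scaling.

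IGFBP2 (ENSSSCG00000035392, chr15:118822092-118850985, plus strand), a binding protein known for high levels in fetal tissue, fell most. Scaled TPM of IGFBP2 was 34.0, 30.1 and 28.2 in the E33 libraries, 15.0, 26.2 and 15.2 in those of E40 and 16.9, 12.7 and 12.8 in those of E50. It was then 9.37, 10.3 and 13.6 (E60), 13.7, 12 and 12.4 (E70) and 4.62, 5.55 and 2.87 (E95). The E33 libraries lay above all others and the E95 libraries below all others, while the ranges from E40 to E70 overlapped in order of their means. The log2 change of E95 against E33 was -2.60 (SE 0.22, adjusted p 2.5e-07), a 6.06-fold fall of scaled TPM + 1, and -3.73 as deposited (adjusted p 4.2e-06). The falls from E33 to E40, -0.73 (adjusted p 0.031), and from E70 to E95, -1.39 (adjusted p 7.6e-04), were called.

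IGFBP5 (ENSSSCG00000025924, chr15:118861816-118877787, minus strand), the gene next to IGFBP2 on chromosome 15, fell as well, with another course. Scaled TPM of IGFBP5 was 366, 361 and 414 in the E33 libraries, 304, 254 and 259 in those of E40 and 317, 249.9 and 291 in those of E50. It was then 202, 202 and 185 (E60), 108, 131 and 119 (E70) and 190.3, 178 and 158 (E95). The E33 libraries lay above all others, the E70 libraries lay below all others, and the E95 libraries lay between those of E70 and those of E40. The log2 change of E95 against E33 was -1.11 (SE 0.12, adjusted p 2.7e-06) and -2.37 as deposited (adjusted p 0.0017). IGFBP5 was called lower at E40 than at E33, with a log2 change of -0.48 (adjusted p 0.011), and at E70 than at E60, with -0.71 (adjusted p 0.0061). It was called higher at E95 than at E70, by 0.55 (adjusted p 0.0066), a rise of 0.0023 as deposited.

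IGFBP4 (ENSSSCG00000017472, chr12:21966524-21980043, minus strand), which PAPPA cleaves to release IGF, fell by 0.79 on the log2 scale from E33 to E95. Scaled TPM of IGFBP4 was 35.9, 27.7 and 34.2 in the E33 libraries, 21.2, 24.9 and 20.8 in those of E40 and 24.1, 16.3 and 19.8 in those of E50. It was then 18.6, 17.9 and 15.8 (E60), 14.1, 14.3 and 13.9 (E70) and 20.5, 21.4 and 13.9 (E95). The E33 libraries lay above all others, and the E70 libraries lay below those of E33, E40, E50 and E60. The change of E95 against E33 had an SE of 0.16 (adjusted p 0.001) and was -2.0 as deposited (adjusted p 0.0022).

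IGFBP6 (ENSSSCG00000000261, chr5:18352884-18357225, plus strand), a binding protein that prefers IGF2, was the member of its family that was higher at E95 after scaling. Scaled TPM of IGFBP6 was 34.4, 31.7 and 35.6 in the E33 libraries, 32.5, 35.3 and 24.8 in those of E40 and 57.0, 43.8 and 60.6 in those of E50. It was then 49.6, 61.4 and 44.7 (E60), 56.3, 64.2 and 74.5 (E70) and 72.1, 79.0 and 46.4 (E95). The libraries of E33 and E40 overlapped and lay below all later libraries, which overlapped each other. Against E33, the E95 libraries had a log2 change of 0.90 (SE 0.20, adjusted p 0.0019) and -0.33 as deposited (adjusted p 0.54). E95 replicate 3, at 46.4, was again apart from the other E95 libraries, and the change without it was 1.13.

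**Figure D2:**
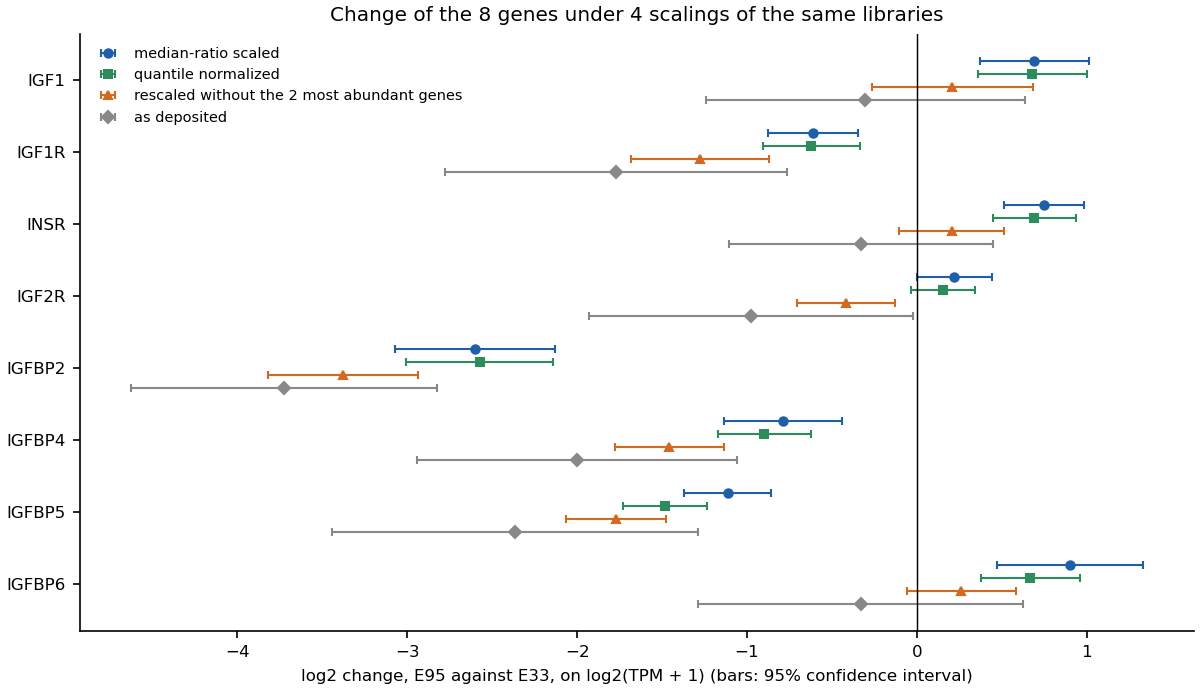
Log2 change of E95 against E33 (x axis) of the 8 genes (y axis) under 4 scalings of the same libraries, with 95% confidence intervals from limma. The intervals of IGFBP2, IGFBP4, IGFBP5 and IGF1R lie below 0 under all 4, and those of IGF1, INSR and IGFBP6 lie above 0 after median-ratio scaling and quantile normalization only.

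Neighbouring stages differed unevenly over time. Of the 8 genes, 4 were called between E33 and E40 (21.0% of all genes tested): IGFBP2, IGFBP4 (-0.52, adjusted p 0.034) and IGFBP5 fell, where 10.9% of all genes did, and IGF1 rose, where 10.1% did. Between E40 and E50 limma called 0 of 8 (1.54% of all genes), with 1 at an unadjusted p under 0.05, IGFBP6, and quantile normalization called that gene. Between E50 and E60 it called 0 of 8 (0.817%), with IGFBP5 and INSR at an unadjusted p under 0.05. Between E60 and E70 it called 1 (1.76%), IGFBP5, which fell, as did 0.555% of all genes. Between E70 and E95 it called 4 (13.5%): IGFBP2 fell, where 6.87% of all genes did, and IGFBP5, INSR and IGF1 rose, where 6.61% did. As deposited, limma called 0 of 8 for each of these 5 pairs, with 3, 0, 1, 0 and 1 genes at an unadjusted p under 0.05, where 4.87%, 0.0075%, 0.06%, 0.0825% and 0.285% of all genes were called. The calls between E33 and E40 rested on single libraries: leaving out replicate 3 of E33 left 0, and leaving out replicate 1 of E40, replicate 3 of E40 or replicate 1 of E33 left 1 of the 4, IGFBP5. Without replicate 1 of E33, IGF2R was called as well, as higher at E40. Without E95 replicate 3, IGF1R and IGFBP4 also passed between E70 and E95, 6 in all. Each pair shares the 3 libraries of a stage with the next pair.

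Ratios between members within a library do not move with its scaling. The TPM of INSR over that of IGF1R was 0.279, 0.246 and 0.305 in the E33 libraries and 0.937, 0.850 and 0.646 in the E95 libraries, with a mean of 0.276 ± 0.0296 and 0.811 ± 0.150 (SD, n = 3). INSR thus lay nearer to IGF1R in every E95 library than in any E33 library, while IGF1R stayed the higher of the pair. IGF2R over IGF1R was 1.09 ± 0.120 at E33 and 2.04 ± 0.319 at E95, and IGF1 over IGF1R was 0.172 ± 0.0383 and 0.501 ± 0.0757.

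Among the 4 binding proteins measured, IGFBP5 made up 77.8, 80.1 and 80.8% of their summed TPM at E33, 56.3, 59.2 and 54.2% at E70 and 66.2, 62.7 and 71.4% at E95. The share of IGFBP6 was 7.10 ± 0.187% at E33, 30.7 ± 2.73% at E70 and 24.6 ± 3.43% at E95. The share of IGFBP2 was 6.47 ± 0.872% at E33, 6.06 ± 0.922% at E70 and 1.62 ± 0.326% at E95. The mix of binding protein transcripts at E95 thus held less IGFBP5 and IGFBP2 and more IGFBP6 than at E33, with no overlap between the libraries of these stages. The share of IGFBP4 stayed close, at 6.82 ± 0.752% and 6.99 ± 0.638%, and its libraries overlapped. IGFBP6 over IGFBP2 was 1.11 ± 0.134 at E33 and 15.3 ± 0.982 at E95. An exact two-sided permutation test of 3 against 3 libraries cannot go below p = 0.1. Of 10 quantities compared between E33 and E95, 9 reached that exact permutation p (Benjamini-Hochberg 0.11 over the 10). The remaining 1, the share of IGFBP4, did not (exact permutation p = 0.8). The quantities share genes, so the 9 are not separate results. Among the 9 was the summed scaled TPM of the 4 binding proteins, which, unlike the ratios and shares, depends on the scaling. Its mean was 478 at E33 and 264 at E95.

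**Figure D3:**
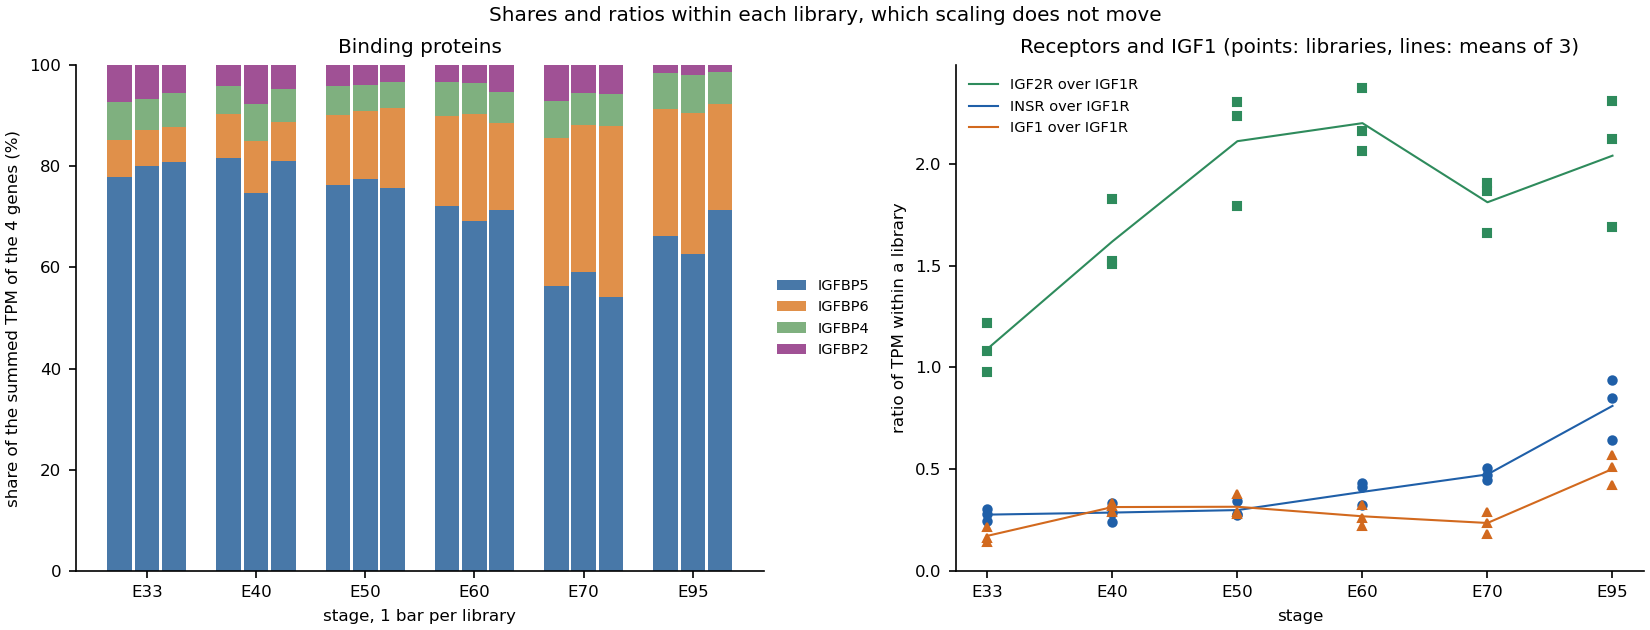
Left, share of IGFBP5, IGFBP6, IGFBP4 and IGFBP2 in the summed TPM of these 4 genes (y axis, percent), 1 bar per library by stage. Right, ratio of the TPM of IGF2R, INSR and IGF1 to that of IGF1R within each library (points) with the mean of 3 per stage (lines); INSR over IGF1R rose from a mean of 0.276 at E33 to 0.811 at E95.

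Markers of other cell types moved over the same stages. The 4 matched of 6 endothelial markers summed to 16.3 to 21.1 scaled TPM at E33 and 59.7 to 71.1 at E95, and all 4 tested (TEK, PECAM1, CDH5 and KDR) were called higher after scaling. The 4 matched of 5 neuronal markers summed to 104 to 134 at E33 and 2.44 to 4.67 at E95, and the 3 tested were called lower. The 5 cartilage markers summed to 115 to 164 and 29.1 to 37.5, with 4 called lower, and the 4 matched of 5 erythroid markers to 77.0 to 219 and 1.60 to 8.46, with 2 of 3 tested called lower. The 6 connective tissue markers summed to 2811 to 3673 and 5709 to 8795, with 4 called higher and 2 lower, and the 5 macrophage markers to 32.9 to 41.7 and 47.2 to 84.6, with 4 called higher. The 5 liver markers summed to 38.4 to 43.7 and 56.8 to 107.5, and 1 was tested, APOA1, which was called higher. The sum is mostly APOA1, with a mean of 52.75 TPM as deposited over the 18 libraries, while the others averaged under 1 TPM. KLF1 of the erythroid list and TTR and SERPINA1 of the liver list were at 0 in all E33 libraries, and SERPINA1 was at 0 in all E95 libraries. As deposited, limma called 0 of the endothelial, connective tissue, macrophage and liver markers higher, with 1 endothelial marker and 0 of the others higher at an unadjusted p under 0.05. The markers called lower as deposited were 3 neuronal, 2 erythroid, 2 connective tissue and 5 cartilage ones. The part of these cell types in the changes of the 8 genes was not tested.

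The rest of the pathway was described with a list of 49 further genes, of which 45 matched a symbol and 39 were tested. After scaling, 17 were called higher at E95 than at E33 and 8 lower, 25 of 39, against 46.7% of all genes tested, and the median log2 change was 0.22, against -0.0046 over all genes. As deposited, 2 were called higher and 17 lower, 48.7% of the 39 against 48.5% of all genes tested, with a median of -0.79 against -1.02 over all genes. After scaling, GHR, the growth hormone receptor, rose by 0.88 (SE 0.14, adjusted p 0.00016), STAT5B, a transcription factor that acts downstream of it, by 0.87, and the insulin receptor substrates IRS1 and IRS2 by 0.61 and 1.02. Other adaptors of the receptors went the other way and were called lower: GRB10 (-0.57), SHC1 (-0.51) and GRB2 (-0.32). The call of SHC1 was lost when replicate 1 of E33, replicate 3 of E33 or replicate 1 of E95 was left out. GHR, STAT5B, IRS1 and IRS2 changed by -0.24, -0.23, -0.57 and -0.19 as deposited and were not called there, while GRB10, SHC1 and GRB2 were called lower there too (-1.66, -1.73 and -1.44).

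The largest rises were those of EIF4EBP1, a brake on translation that mTOR releases, IGFBP7, a low-affinity relative of the binding proteins, and TRIM63 and FBXO32, ubiquitin ligases of muscle that FOXO factors induce. EIF4EBP1 went from 3.94 ± 0.888 to 37.2 ± 9.49 scaled TPM (SD, n = 3 at E33 and at E95; log2 change 2.94, SE 0.18, adjusted p 9.3e-09) and IGFBP7 from 4.21 ± 0.758 to 27.9 ± 2.09 (2.48, adjusted p 1.0e-09). EIF4EBP1 and IGFBP7 were also called higher as deposited (1.82 and 1.35). TRIM63 changed by 2.12 and FBXO32 by 1.95 after scaling, and by 1.02 (adjusted p 0.062) and 0.91 (adjusted p 0.098) as deposited.

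The largest falls were those of IRS4, PAPPA, STC1 and PIK3R2, and each was called lower as deposited too. PAPPA, the protease that cleaves IGFBP4, went from 4.97 ± 1.10 to 0.801 ± 0.229 scaled TPM (log2 change -1.72, SE 0.14, adjusted p 2.2e-07), and STC1, an inhibitor of PAPPA, from 5.62 ± 1.5 to 1.78 ± 0.726 (-1.26, adjusted p 0.0028). IRS4, an adaptor of the receptors, fell by 1.98 (SE 0.67, adjusted p 0.026) from 3.94 ± 2.14 scaled TPM at E33 to between 0 and 0.562 in the E95 libraries. IRS4 was no longer called when replicate 1 of E33, replicate 3 of E33 or replicate 1 of E95 was left out. PIK3R2, a regulatory subunit of PI3 kinase, fell by 0.63 (adjusted p 0.0012). IGFALS, which joins IGF and a binding protein in the circulating complex, changed by 0.037 (SE 0.30, adjusted p 0.94) after scaling.

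**Figure D4:**
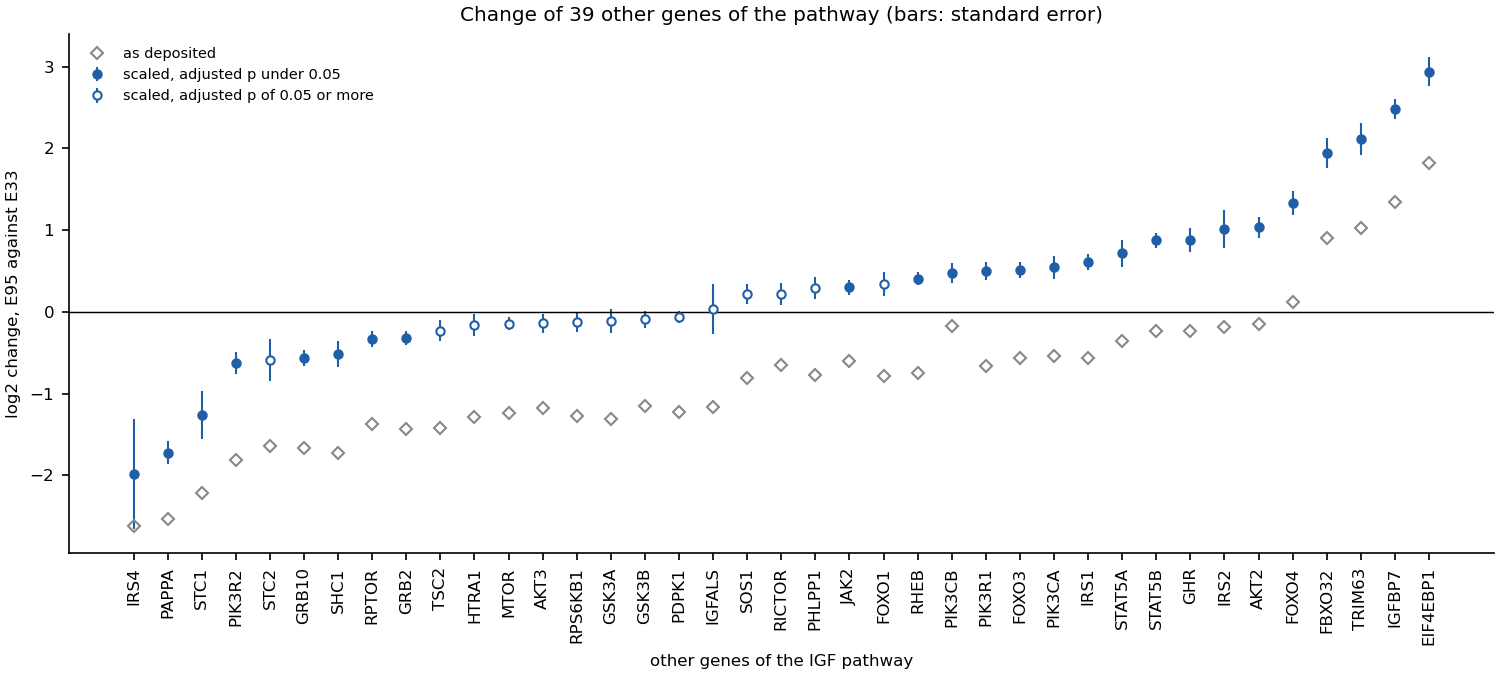
Log2 change of E95 against E33 (y axis) of the 39 other pathway genes tested (x axis, in order of the scaled change). Filled and open circles are scaled changes with and without an adjusted p under 0.05, bars are standard errors, and diamonds are the changes as deposited, which lie lower for every gene shown.

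The genes whose scaled levels were most like those of each member over the 18 libraries were looked for among 6374 genes with a symbol and a mean of at least 5 TPM. These correlations (Pearson's r of log2 values) are descriptions, since all genes share the stages and the scaling of the libraries. INSR was nearest to VEGFA (r = 0.94) and CAPN1 (0.94), IGF1R to PKNOX2 (0.93) and DNAAF9 (0.91), IGF2R to BEGAIN (0.90) and BAG2 (0.87), and IGF1 to SLC25A36 and VCAM1 (0.82 each). IGFBP2 was nearest to MYBL2 (0.96), IGFBP4 to AGRN (0.96) and PC (0.93), IGFBP5 to C1orf198 (0.92) and FRMD4A (0.92), and IGFBP6 to HS3ST6 (0.94) and PPP4C (0.92).

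The 8 lists held 88 peaks of the 8 genes, 69 of them in the stage lists, and these fell into 18 sites when peaks that overlapped by at least 1 base were joined. IGF1, IGF1R, INSR, IGF2R and IGFBP5 had at least 1 peak in all 6 stage lists, as did 18.3% of all genes tested. IGFBP2 and IGFBP4 had no peak in any of the 8 lists, and IGFBP6 had a peak only in the PK15 polyA list. Among the 3873 genes with a mean of 10 to 60 TPM, the range that holds IGFBP2, IGFBP4 and IGFBP6, 35.1% had no peak in any stage and 33.3% had one in all 6. IGF1R and IGF2R lie in that range too. A list has no replicates, so a peak seen in some lists and not in others has no measure of its error. Fold enrichment is the authors' value for immunoprecipitated over input RNA at each peak. Its median over all peaks of a list was 7.41 for PK15 polyA RNA and 3.92 for PK15 rRNA-depleted RNA. In the stage lists the median ran from 3.51 (E33) to 4.88 (E50).

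**Figure D5:**
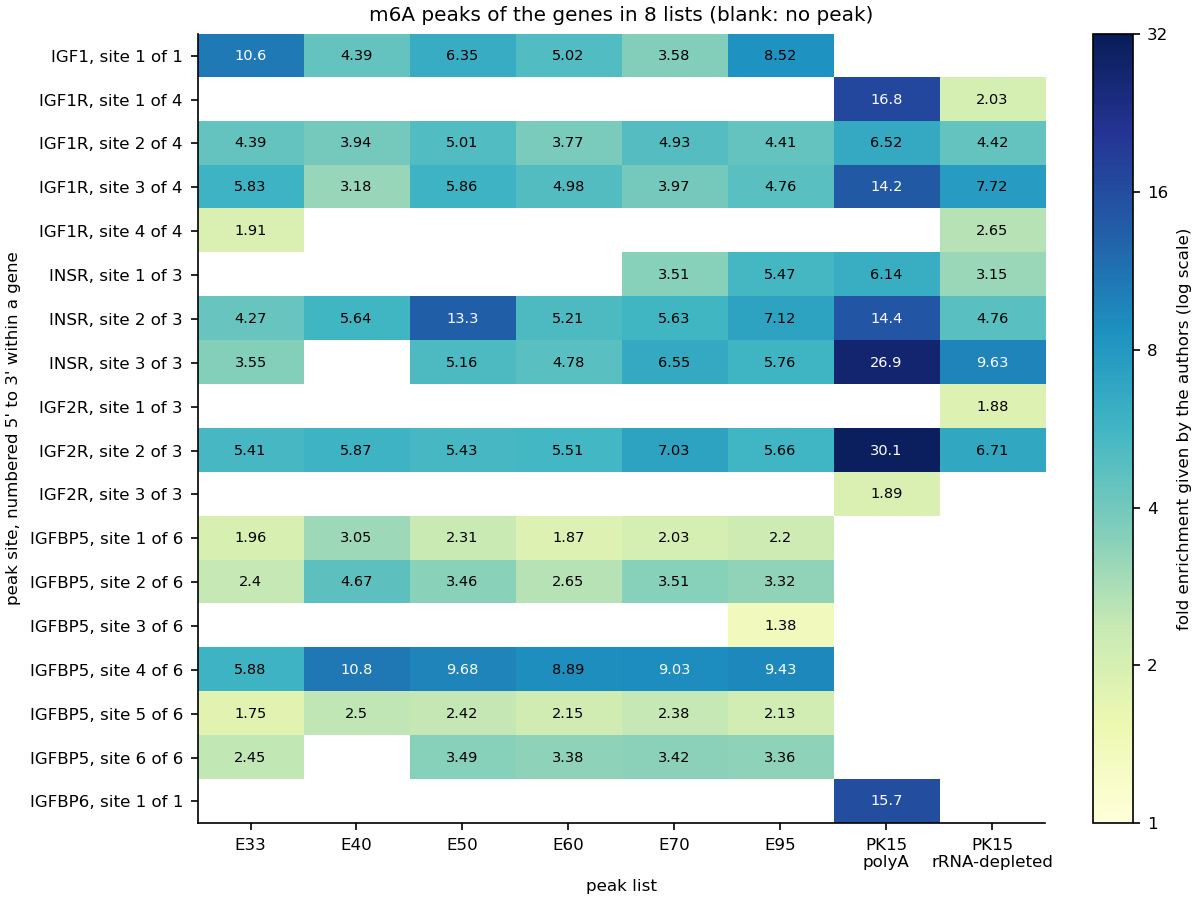
Fold enrichment given by the authors (colour, log scale, and number in the cell) of the 18 peak sites of the genes (y axis, numbered 5′ to 3′) in the 6 stage lists and the 2 PK15 lists (x axis). Blank cells have no peak, and where a list has 2 peaks at a site the higher value is shown; the site 1 peak of INSR is present in the E70 and E95 lists and in both PK15 lists, and absent from the other 4.

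The sequences below are the coding parts of peaks that the results turn on, read from the RefSeq genome of Sscrofa11.1, the build named in the submitters' processing notes, on the strand of the gene. GGAC, a common form of the sequence around m6A, is in capitals, and GTCC, its reverse complement, was counted beside it. All 12 junctions between blocks of these genes' peaks fell at RefSeq introns.

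The peak in exon 2 of IGF1R (minus strand) was in all 8 lists, and that in exon 2 of INSR (plus strand) only in the E70, E95 and PK15 lists. They are shown together because the genes are paralogs: chr1:137638059-137638269 as listed at E95 and chr2:71815109-71815318 as listed at E70.
IGF1R exon 2: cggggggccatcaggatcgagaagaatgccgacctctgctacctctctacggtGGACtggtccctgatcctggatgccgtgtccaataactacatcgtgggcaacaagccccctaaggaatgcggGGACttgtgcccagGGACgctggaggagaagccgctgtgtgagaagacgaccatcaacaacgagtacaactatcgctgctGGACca
INSR exon 2: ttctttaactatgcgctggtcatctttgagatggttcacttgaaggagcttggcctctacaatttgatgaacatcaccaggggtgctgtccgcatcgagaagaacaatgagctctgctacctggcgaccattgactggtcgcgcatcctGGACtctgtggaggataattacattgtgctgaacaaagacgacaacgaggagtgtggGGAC
The IGF1R stretch of 211 bases holds 4 GGAC and 2 GTCC, and the INSR stretch of 210 bases holds 2 GGAC and 1 GTCC. GGAC occurs at least once in 74.7% of windows of 211 bases centred on single-block peaks of the E95 list, and GTCC in 48.7%. For windows of 210 bases at E70 peaks the shares were 74.8% and 49.5%. A local alignment paired 128 bases of them, of which 91 (71.1%) were identical, and 1 GGAC lay at the same place in both. The IGF1R peak had a fold enrichment of 4.39, 3.94, 5.01, 3.77, 4.93 and 4.41 from E33 to E95, 6.52 in PK15 polyA RNA and 4.42 in PK15 rRNA-depleted RNA. The INSR peak had 3.51 at E70, 5.47 at E95, 6.14 in PK15 polyA RNA and 3.15 in PK15 rRNA-depleted RNA. After scaling, INSR was highest at E70 and E95, 5.50 ± 0.486 and 7.97 ± 0.557 scaled TPM (SD, n = 3) against means of 3.52 to 4.52 earlier. As deposited, its mean was highest at E33, 7.29 TPM, where this peak was not listed. The deposited means were 5.70 at E60, 5.51 at E70 and 5.59 at E95, so the order of stages depends on the scaling. Whether the level sets the detection of this peak was not tested.

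IGF1R and INSR each had a further peak at the end of the coding sequence in all 8 lists. The stretches are chr1:137390186-137390402 (exon 21 of 21, minus strand) and chr2:71934841-71935122 (exon 22 of 22, plus strand), as listed at E60 and ended at the stop codon.
IGF1R coding end: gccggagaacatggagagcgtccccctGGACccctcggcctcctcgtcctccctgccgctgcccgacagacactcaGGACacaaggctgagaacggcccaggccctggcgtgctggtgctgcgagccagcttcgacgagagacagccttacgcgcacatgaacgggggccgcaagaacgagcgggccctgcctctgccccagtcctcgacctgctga
INSR coding end: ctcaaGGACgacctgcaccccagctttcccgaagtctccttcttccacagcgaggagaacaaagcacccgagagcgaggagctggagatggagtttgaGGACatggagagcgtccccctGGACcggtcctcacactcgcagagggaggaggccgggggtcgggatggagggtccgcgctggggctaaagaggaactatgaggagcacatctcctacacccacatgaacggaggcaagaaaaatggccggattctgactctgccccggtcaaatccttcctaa
IGF1R holds 2 GGAC and 3 GTCC in 217 bases and INSR 3 of each in 282 bases. Windows of these lengths at E60 peaks hold a GGAC in 77.4% and 83.2% of cases, and a GTCC in 50.5% and 60.6%. Of 165 bases aligned, 121 (73.3%) were identical, and 1 GGAC was shared in place. The fold enrichment of the IGF1R peak ranged from 3.18 (E40) to 5.86 (E50) over the stages and was 14.2 in PK15 polyA RNA and 7.72 in PK15 rRNA-depleted RNA, the preparation used for muscle. That of the INSR peak ranged from 4.27 (E33) to 13.3 (E50), the highest value of any member in a stage list, and was 14.4 in PK15 polyA RNA and 4.76, within the range of the stages, in PK15 rRNA-depleted RNA. INSR had another peak downstream in the same exon, with a fold of 3.55 to 6.55 in 5 of the 6 stage lists, missing at E40, and with up to 26.9 in PK15 polyA RNA and 9.63 in PK15 rRNA-depleted RNA.

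IGF2R had a single peak in each stage list, over the stop codon, and its fold enrichment was 5.41, 5.87, 5.43, 5.51, 7.03 and 5.66 from E33 to E95. The highest value of all members was at this site, 30.1 in PK15 polyA RNA (list median 7.41), against 6.71 in PK15 rRNA-depleted RNA (list median 3.92). Its coding part at E60 is chr1:7369490-7369749 (exon 48 of 48, minus strand), shown for its 6 GGAC.
IGF2R coding end: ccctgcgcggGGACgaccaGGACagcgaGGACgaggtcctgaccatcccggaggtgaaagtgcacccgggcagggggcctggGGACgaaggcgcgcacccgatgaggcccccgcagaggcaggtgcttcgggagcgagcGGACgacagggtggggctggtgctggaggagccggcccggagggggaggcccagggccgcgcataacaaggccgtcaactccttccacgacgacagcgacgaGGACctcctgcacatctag
It holds 6 GGAC and 1 GTCC in 260 bases. GGAC occurs at least once in 81.4% of windows of that length centred on the 5902 single-block peaks of the E60 list, and GTCC in 57.3%. How many GGAC each window holds was not counted.

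IGF1 had a single site in the muscle lists, at the end of its coding sequence, and no peak in either PK15 list. Its fold enrichment was highest in the first and the last list, 10.6 at E33 and 8.52 at E95, and was 4.39 (E40), 6.35 (E50), 5.02 (E60) and 3.58 (E70) between them. The peaks at this site were 61 to 271 bases long and did not all overlap the same bases: the E33 peak lay past the stop codon. The coding part of the E95 peak is chr5:81832668-81832810 (exon 4 of 4 in the transcript used, plus strand), shown because it belongs to the ligand.
IGF1 coding end: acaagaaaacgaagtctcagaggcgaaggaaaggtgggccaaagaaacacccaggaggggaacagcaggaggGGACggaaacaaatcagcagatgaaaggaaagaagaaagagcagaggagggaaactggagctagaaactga
It holds 1 GGAC and no GTCC in 143 bases, and 65.6% of windows of that length at E95 peaks hold a GGAC.

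IGFBP5 had up to 7 peaks in a stage list, and 2.11% of the 6341 genes with a stage peak had as many in a list. Of its 6 sites, the one with the highest fold, chr15:118859300-118860140, had 5.88 at E33, 10.8 at E40 and 8.89 to 9.68 later. This site lies downstream of the RefSeq gene (chr15:118861816-118877787, minus strand), outside its exons, and was assigned to IGFBP5 by the authors. The site over the stop codon had 2.40 at E33, 4.67 at E40 and 2.65 to 3.51 later, and the coding site upstream 1.96, 3.05 and 1.87 to 2.31. The E40 list thus had the highest value at each of these 3 sites, with no replicate to set against it. E40 was also highest, at 2.50, at the site chr15:118858490-118858640. At the site chr15:118857921-118858131, E40 was the only stage list without a peak, and the other stages had 2.45 to 3.49. The sites chr15:118857921-118858131, chr15:118858490-118858640 and chr15:118860410-118860530 also lie downstream of the RefSeq gene. Peaks over the stop codon run past its end. The number of IGFBP5 peaks thus rests on the authors' assignment. No IGFBP5 peak was listed in PK15 cells, whose expression was not analysed here.

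IGFBP6 had its only peak at the start codon in PK15 polyA RNA, with a fold enrichment of 15.7, and none in PK15 rRNA-depleted RNA or in muscle, where its level was 24.8 to 79.0 scaled TPM. The coding part is chr5:18353452-18353588 (exon 1 of 4, plus strand), shown because it is the single binding protein peak of the kidney cells under a member's symbol.
IGFBP6 coding start: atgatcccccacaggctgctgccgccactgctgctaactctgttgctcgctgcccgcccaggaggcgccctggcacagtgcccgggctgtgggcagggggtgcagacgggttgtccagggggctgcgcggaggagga
It holds no GGAC and 1 GTCC in 137 bases, where 61.5% and 37.8% of windows of that length at PK15 polyA peaks hold them.

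IGFBP2 (chr15:118822092-118850985, plus strand) and IGFBP4 (chr12:21966524-21980043, minus strand) had no listed peak to print. IGFBP2, without a peak, and IGFBP5, with the most peaks of the group by the authors' assignment, are neighbours on chromosome 15. With peaks placed by RefSeq exons in place of the authors' assignment, the same 5 members had a peak in each stage list. Peaks over exons of RefSeq IGFBP3 were found in both PK15 lists and in no stage list, under an Ensembl gene without a symbol. Counting only peaks above the median fold of their list left 4 members with a peak at E40 (without IGF1R) and at E70 (without IGF1), and 5 at the other stages.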

How the data were processed

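Per the submitters' processing notes, Trimmomatic, HISAT2 and the build Sscrofa11.1 were used; their roles, and the quantifier, peak caller, peak threshold and pooling of replicates, are not given in the sources used here. The deposited expression values are TPM, per the file headers, and the deposited peak lists give a fold enrichment (ratio) and a p-value per peak from the authors' caller. Trizol extraction and DNaseI treatment of the RNA are given per the labels' protocols. Samples were grouped by their labels.

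TPM was divided by a median-ratio factor per library, from 11974 genes above 0 in all libraries. The 13334 genes that averaged 1 TPM or more were tested on log2(scaled TPM + 1) with limma 3.58.1 in R 4.3.3, with 1 mean per stage over all 18 libraries (12 residual degrees of freedom before moderation), trended moderation, two-sided tests and Benjamini-Hochberg adjustment over all genes. The fit was tested on simulated data. Alternatives changed the scaling, pseudocount (0.1), filter (none, 5 TPM), libraries, samples fitted and blocking. Peaks were taken by the gene the authors list and converted to positions counted from 1. Coordinates and sequences came from RefSeq Sscrofa11.1, read with pysam 0.24.0.

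The genes named are the members, the 4 largest rises and falls of the pathway list that were called with no overlap between E33 and E95, and the 2 genes most like each member (1 gene and 1 sequence are not reported here); GHR, STAT5B, IRS1, IRS2, GRB10, SHC1, GRB2 and IGFALS were named after their values were seen. The members and lists were chosen with earlier results of these data known. Expression in PK15 cells and levels in single immunoprecipitated samples were not used here. Replicate numbers are shared between stages, but same-numbered libraries did not deviate together: the median correlation over 45 pairs was 0.017, and 1 pair was over 0.1.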

Additional observations from a re-analysis of the deposited data

How the results depend on the processing

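The falls of IGFBP2, IGFBP4, IGFBP5 and IGF1R from E33 to E95 were called under every scaling, pseudocount and filter tried and without any single library. The rises of IGF1, INSR and IGFBP6 rest on the scaling. With values as deposited, 4 members were called for E95 against E33, 3 over all 6 stages, and 0 for E40 against E33, E70 against E60 and E95 against E70. Reversed values as deposited were -0.30 for IGF1, -0.33 for INSR and -0.33 for IGFBP6 at E95 against E33, -0.056 for IGF1 at E40 against E33, and -0.0082 for INSR at E95 against E70. With TPM recomputed without the 2 most abundant genes, IGF2R reversed to -0.42 at E95 against E33, and 1 member, IGFBP2, was called for E95 against E70. With only the 6 libraries of both stages, 1 was called for E40 against E33 and 0 for E70 against E60. Quantile normalization called 1 for E50 against E40, and 1 was called for E60 against E50 with no filter on low values or with a pseudocount of 0.1. Which property of the scaled libraries moved these calls was not tested. Leaving out single libraries gave 8 members over all stages, 7 to 8 for E95 against E33, 0 to 5 for E40 against E33, 0 to 1 for E50 against E40 and for E60 against E50, 1 for E70 against E60, 3 to 6 for E95 against E70, and 22 to 27 for the pathway list. With the replicate block, 8 members were called over all stages, 7 for E95 against E33, 4 for E40 against E33 and 25 of the pathway list, and it changed no call of a member; since the numbers do not pair the libraries, nothing is read from it. Requiring an overlap of 50% of the shorter peak gave 19 peak sites in place of 18. With TPM alone the read depth behind each level is unknown, and 3 libraries per stage limit the precision.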

Other observations

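An Ensembl gene without a symbol, ENSSSCG00000035293, has peaks within exons of RefSeq IGF2 on the same strand (chr2:1469183-1496417, minus strand), apart from 1 in the E95 list (chr2:1479145-1479294) that lies outside them, and whether the files mean IGF2 by it is not stated. It was chosen after its values were seen. Its scaled TPM was 452, 359 and 419.7 at E33, 883, 1095 and 1156 at E60 and 1481, 1650 and 1315 at E95, so it was more abundant than any of the 8 genes at E95. The log2 change of E95 against E33 was 1.85 (SE 0.14, adjusted p 7.7e-08 in limma), and 0.59 (adjusted p 0.29) as deposited. It had 3 sites with a peak in all 6 stage lists and none in PK15 cells, and its highest fold enrichment was 8.61, at E40.

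A further gene without a symbol, ENSSSCG00000038783, had peaks in both PK15 lists over exons of RefSeq IGFBP3 (chr18:50002921-50009425, plus strand). In each list a peak runs past the end of that gene, to position 50009574 in PK15 polyA RNA and to 50035762 in PK15 rRNA-depleted RNA. Its scaled TPM was 18.1, 19.4 and 19.1 at E33 and 8.86, 8.21 and 7.94 at E95, with no overlap. The log2 change was -1.09 (SE 0.21, adjusted p 6.8e-04 in limma), and -2.25 (adjusted p 0.0013) as deposited.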
